A study of Mus musculus with 12 samples.

Results

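The genes described here are the nuclear-encoded genes of oxidative phosphorylation, the chain of enzymes in the inner mitochondrial membrane that burns NADH and succinate with oxygen and makes ATP. They were chosen by name: symbols that start with Nduf, Sdh, Uqcr, Atp5 or Cox4 to Cox8, together with Cycs and Cyc1, without pseudogene symbols. The rule found 94 of the 14560 gene rows. By complex these were 37 rows of complex I, 4 of complex II, 9 of complex III, 14 of complex IV, 17 of complex V, 12 assembly factors of complexes I and II (Ndufaf and Sdhaf) and the electron carrier cytochrome c (Cycs). The 94 rows hold 93 symbols, because Ndufa13 stands on 2 rows. The row ENSMUSG00000048967 is named Yjefn3 in GENCODE, lay between 0 and 1.18 CPM and was never called, so Ndufa13 below means ENSMUSG00000036199. Subunits that the mitochondrial genome encodes were not analysed here.

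RNA was sequenced from 4 populations sorted from the bone marrow of C57BL/6 mice, with 3 libraries of each and 3 mice in the series. The 3 progenitor gates shared positive staining for c-Kit, CD16/32 and CD34 and lacked Sca1 and the lineage markers Gr1, CD11b, CD3, B220 and Ter119. Within that gate DN-GMPs were negative for E-cadherin (CDH1) and for the IgE receptor chain FceRIa, Pro-BMPs were CDH1+ FceRIa-, and Pre-BMPs were CDH1- FceRIa+. Basophils came from another gate, without c-Kit, Sca1, Ter119, CD8a, CD4 or B220, and were FceRIa+ CD49b+. No age, sex, treatment or altered allele is given, and cells were sorted in 2 rounds. The labels' numbers 1 to 3 are not said to mark a mouse, so p-values measure the spread between libraries. The order DN-GMPs, Pro-BMPs, Pre-BMPs, basophils is used below as 3 steps toward the basophil.

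Complex I (NADH dehydrogenase) and complex II (succinate dehydrogenase) pass electrons to coenzyme Q. Complex III passes them from coenzyme Q to cytochrome c, and complex IV (cytochrome c oxidase) from cytochrome c to oxygen. Complexes I, III and IV pump protons, and complex V (ATP synthase) lets them flow back through a ring of c subunits to make ATP. Complexes I, III, IV and V are built from nuclear and mitochondrial genes together, while complex II is wholly nuclear, and chaperones such as the Ndufaf proteins put them together. Dividing progenitors with large biosynthetic demands and resting granulocytes are known to differ in how much they respire.

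Promoters are shown first, because many of these genes share binding motifs of a few regulators, among them NRF1 and the ETS factor GABP. The sequences below are RefSeq's (GRCm38.p6), the 250 bases before the start site, 5′ to 3′ on the gene's strand. Capitals mark matches of 5 motifs searched on both strands: NRF1 (GCGCATGCG), ETS and GABP (CCGGAAG), YY1 (AAGATGGCG), estrogen-related receptor (AAGGTCA) and CREB (TGACGTCA). The genes were picked for the values described further on. Cycs (chr6:50566570-50566819, minus strand) and Ndufaf4 (chr4:24897833-24898082, plus strand) fell from DN-GMPs to basophils and hold an NRF1 match, Cycs also a CREB match. Atp5g1 (chr11:96075632-96075881), Atp5g2 (chr15:102671048-102671297) and Atp5g3 (chr2:73911327-73911576), all on the minus strand, encode the same c subunit. Cox6b2 (chr7:4753095-4753344, minus strand) had its highest level in Pre-BMPs, and Ndufa1 (chrX:37191239-37191488, minus strand) rose.

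Cycs: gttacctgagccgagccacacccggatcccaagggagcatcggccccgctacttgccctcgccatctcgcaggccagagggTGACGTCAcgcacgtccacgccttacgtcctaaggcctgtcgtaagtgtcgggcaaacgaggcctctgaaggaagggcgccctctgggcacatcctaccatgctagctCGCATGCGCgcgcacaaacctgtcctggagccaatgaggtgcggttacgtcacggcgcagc

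Ndufaf4: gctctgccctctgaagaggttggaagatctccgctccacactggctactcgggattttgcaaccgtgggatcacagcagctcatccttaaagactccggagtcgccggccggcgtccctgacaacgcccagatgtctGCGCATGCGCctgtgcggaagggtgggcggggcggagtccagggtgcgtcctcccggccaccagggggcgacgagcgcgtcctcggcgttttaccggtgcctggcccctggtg

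Atp5g1: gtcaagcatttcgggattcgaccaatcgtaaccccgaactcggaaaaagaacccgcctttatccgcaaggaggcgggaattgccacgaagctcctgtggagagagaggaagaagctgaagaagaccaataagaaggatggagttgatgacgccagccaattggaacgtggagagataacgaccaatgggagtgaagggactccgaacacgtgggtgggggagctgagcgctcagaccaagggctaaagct

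Atp5g2: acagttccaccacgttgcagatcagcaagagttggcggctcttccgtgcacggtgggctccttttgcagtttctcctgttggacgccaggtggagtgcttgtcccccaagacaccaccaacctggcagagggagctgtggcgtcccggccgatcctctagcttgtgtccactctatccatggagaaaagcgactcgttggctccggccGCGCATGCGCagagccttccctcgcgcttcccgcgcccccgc

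Atp5g3: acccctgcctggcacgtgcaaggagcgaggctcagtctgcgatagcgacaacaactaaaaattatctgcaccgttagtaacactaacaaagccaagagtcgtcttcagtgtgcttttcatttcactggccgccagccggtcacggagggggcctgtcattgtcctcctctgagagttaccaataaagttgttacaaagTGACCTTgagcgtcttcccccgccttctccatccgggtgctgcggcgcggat

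Cox6b2: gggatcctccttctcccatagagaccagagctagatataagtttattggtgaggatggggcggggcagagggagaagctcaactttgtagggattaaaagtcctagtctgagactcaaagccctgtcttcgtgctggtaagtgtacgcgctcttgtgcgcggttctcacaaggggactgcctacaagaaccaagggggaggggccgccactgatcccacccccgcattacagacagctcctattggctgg

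Ndufa1: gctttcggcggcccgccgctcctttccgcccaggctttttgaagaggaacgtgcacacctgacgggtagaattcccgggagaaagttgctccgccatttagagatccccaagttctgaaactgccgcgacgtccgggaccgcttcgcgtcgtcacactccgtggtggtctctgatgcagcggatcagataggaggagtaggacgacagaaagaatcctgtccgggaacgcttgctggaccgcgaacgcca

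In these windows Atp5g2 and Ndufaf4 hold the NRF1 letters, which read nearly the same on both strands and so match as an overlapping pair, Atp5g3 holds the estrogen-related receptor letters on the other strand, and Atp5g1, Cox6b2 and Ndufa1 hold none of the 5. RefSeq promoters of 300 bases (250 before and 50 after the start) were matched for 78 of the 93 symbols, 83 promoters in all. The NRF1 letters were in 13.3% of these 83, in 3.63% of the 12421 promoters of all genes in the table and in 1.75% of all 32851 promoters. The other motifs were also more frequent than in the table's genes: ETS and GABP in 26.5% against 17.9%, YY1 in 9.64% against 3.07%, estrogen-related receptor in 9.64% against 3.27% and CREB in 6.02% against 3.04%. Among the 61 promoters of genes lower in basophils than in DN-GMPs the NRF1 share was 14.8% (9 promoters), and among the other 22 it was 9.09% (2 promoters). For YY1 the shares were 13.1% (8 promoters) and 0.0%, and for ETS and GABP they stood in the opposite order, 23.0% and 36.4%. In the 3086 promoters of all genes lower in basophils the shares were near those of the table's genes. They were 4.08% for NRF1, 3.5% for YY1 and 18.0% for ETS and GABP. None of these differences was tested. A match describes letters, and no factor's binding was measured.

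Reads on listed genes ran from 29762981 to 42502405 per library, and 3 reads, the most that a count of 0 allows, stood for 0.0512 to 0.0745 CPM (counting error only). CPM here means reads per 1000000 of the library size that the authors scaled. RNA of 8 basophil markers summed to 278 to 385 CPM in the DN-GMP gate, 1182 to 1400.2 with E-cadherin, 4293 to 5292 with the IgE receptor and 36888 to 42196 in mature basophils. Cdh1, the E-cadherin gene, went against the surface gates: it was at 33.6 to 56.0 CPM in the CDH1+ Pro-BMPs and higher, at 105 to 178, in the CDH1- Pre-BMPs, after 0.0212 to 0.149 in DN-GMPs. Sums of 10 neutrophil markers were 18938 to 21811 CPM in DN-GMPs, where Ltf was at 0, and 2929 to 4056 in basophils. Those of 7 eosinophil markers were highest in Pre-BMPs (1976 to 3387 CPM). Those of 7 monocyte and dendritic markers were 2026 to 2400.0 CPM in DN-GMPs, 32.9 to 42.2 where the IgE receptor first appears and 253 to 440.3 in basophils, with Cd74 and Flt3 at 0 there. The part of these other cells in the results was not tested. In bulk libraries fewer cells that express a gene and less of its RNA per cell cannot be told apart. In DN-GMP replicate 2 and Pre-BMP replicate 3 genes of short coding sequence stood low, which touches the members and is described with the coding lengths.

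The RNA of the oxidative phosphorylation genes fell along the series. Their summed level was 17642, 15323 and 16958 CPM in the DN-GMP libraries, 15039, 16475 and 14059.9 in the Pro-BMP libraries, 13557, 13942 and 11112 in Pre-BMPs and 9825, 10251 and 10902 in basophils. DN-GMPs and Pro-BMPs overlapped, all Pre-BMP libraries were below all Pro-BMP libraries, and all basophil libraries were below all Pre-BMP libraries. As a share of the scaled library the means were 1.66%, 1.52%, 1.29% and 1.03%, and the mean of basophils was 0.621 ± 0.0551 times that of DN-GMPs (SD carried from both groups, n = 3 each). Without DN-GMP replicate 2 and Pre-BMP replicate 3 that ratio was 0.597. Population means fell at each of the 3 steps for 66 of the 94 rows, against 15.6% of all genes.

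**Figure D1:**
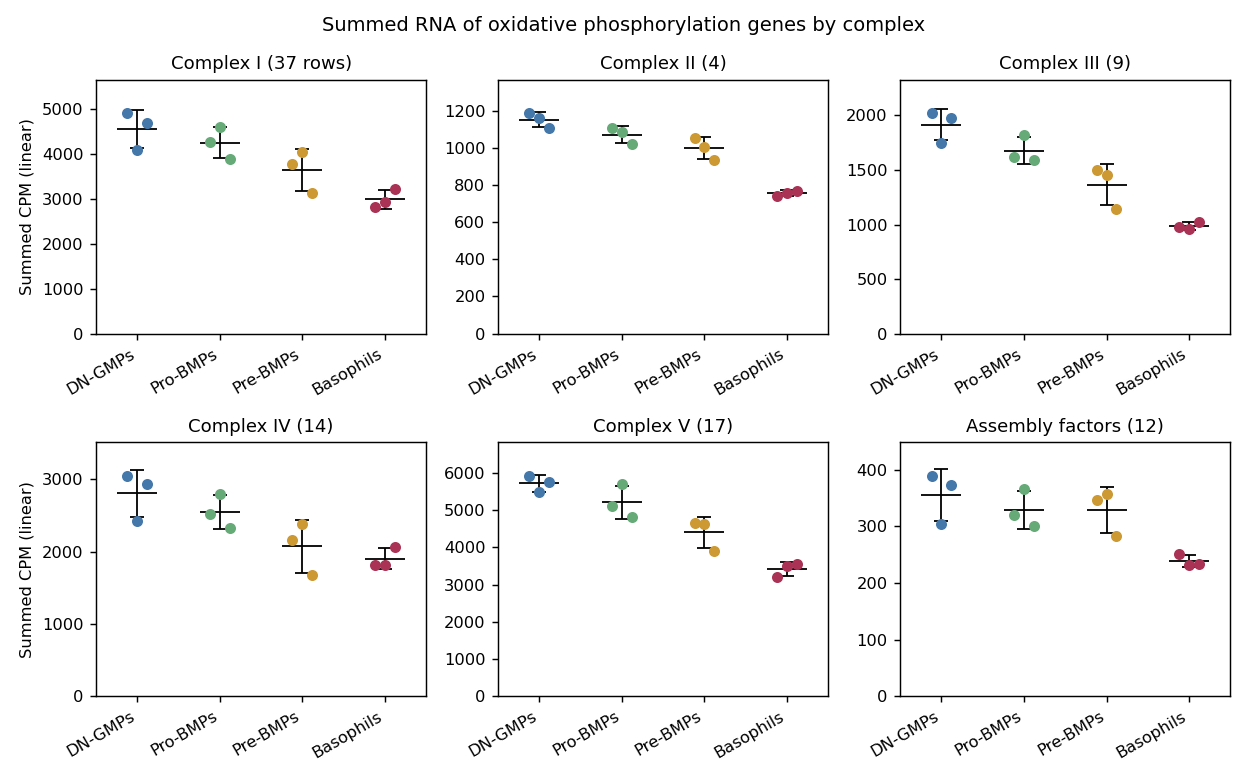
Summed CPM (vertical axes, linear, from 0) of the genes of complexes I to V and of the assembly factors in each library, by population (horizontal axes). Points are replicates 1 to 3 from left to right, bars the mean and whiskers the SD of 3. All basophil libraries lie below all DN-GMP libraries in every panel, and basophils overlap with Pre-BMPs in complex I (2807 to 3214 against 3118 to 4031) and in complex IV (1810.2 to 2068 against 1671 to 2384).

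Between DN-GMPs and Pro-BMPs, the step at which surface E-cadherin appears, no gene of oxidative phosphorylation passed the test. The limma fit called 0 of 94 lower and 0 higher, where 0.536% of all genes were called lower, 2.0% higher and 2.53% in either direction. An unadjusted limma p under 0.05 was found for 5 of the 94 and for 2017 of all 14560 genes. The median log2 change was -0.11, against 0.02 over all genes. The lowest adjusted p was that of Atp5g3, at 507, 408 and 444 CPM in DN-GMPs and 330.2, 370.3 and 334 in Pro-BMPs (log2 change -0.39, limma adjusted p = 0.083). Every Pro-BMP library was below every DN-GMP library for 7 of the 94 and above for 2, against 8.91% and 9.81% of all genes. Atp5g3 was called lower when DN-GMP replicate 2 was left out, and Uqcrc1 when Pre-BMP replicate 1 was, which enters the fit through the shared spread.

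Between Pro-BMPs and Pre-BMPs, when the IgE receptor appears, 8 of 94 were called lower and 0 higher, against 4.69% of all genes lower, 4.8% higher and 9.49% in either direction. The 8 were Ndufa10, Ndufab1 and Ndufb5 of complex I, Sdhd of complex II, Cox5a and Cox6a2 of complex IV, Atp5g3 of complex V and Cycs. The median change of the 94 was -0.29, against 0.02 over all genes, and every Pre-BMP library was below every Pro-BMP library for 33 of 94 and above for 3, against 16.0% of all genes each way. Which genes passed depended on single libraries: 3 were called without Pre-BMP replicate 3 (Cox5a, Cycs and Ndufa10, all among the 8), 3 without Pro-BMP replicate 1 and 2 without Pro-BMP replicate 2, and 3 without a mean-variance trend. With the trend of each library with coding length removed, 17 were called lower, against 6.39% of all genes with a coding length.

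Between Pre-BMPs and basophils 34 of 94 were called lower and 0 higher, where 16.5% of all genes were called lower, 13.9% higher and 30.4% in either direction. The median change was -0.25, against -0.10 over all genes. In 37 of 94 every basophil library was below every Pre-BMP library, against 24.2% of all genes, and in 0 of 94 was every one above, against 22.3%. Across the whole series, basophils against DN-GMPs, 69 were called lower and 1 higher, where 23.2% of all genes were called lower, 23.2% higher and 46.4% in either direction. The median change was -0.71, against -0.01 over all genes. With no overlap of libraries 74 of 94 were lower and 1 was higher, against 27.1% and 27.0% of all genes. The 4 comparisons share populations and are not independent of each other. A moderated F-test over the 4 populations called 62 of 94, where 46.8% of all genes were called.

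The scale of the basophil libraries bears on the last step. The library size the authors scaled to was 1.10 to 1.13 times the reads on listed genes in basophils and 1.32 to 1.41 times in the other populations. With library sizes set to the reads on listed genes, the median change of all genes from Pre-BMPs to basophils moved by -0.32, and 56 of the 94 were called lower, against 26.2% of all genes under that scaling, with a median change of -0.57. That scaling also moved the share of higher among all called genes from 45.6% to 26.6%, and from about equal (6749 called, 3376 of them lower and 3373 higher) to 38.7% between DN-GMPs and basophils, where it moved the median of all genes by -0.26 and quantile normalization by -0.11. Relative to the median of all genes, a difference that library sizes cannot alter, the members stood at -0.14 at this step and at -0.70 from DN-GMPs to basophils. With quantile normalization these values were -0.36 and -0.72.

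**Figure D2:**
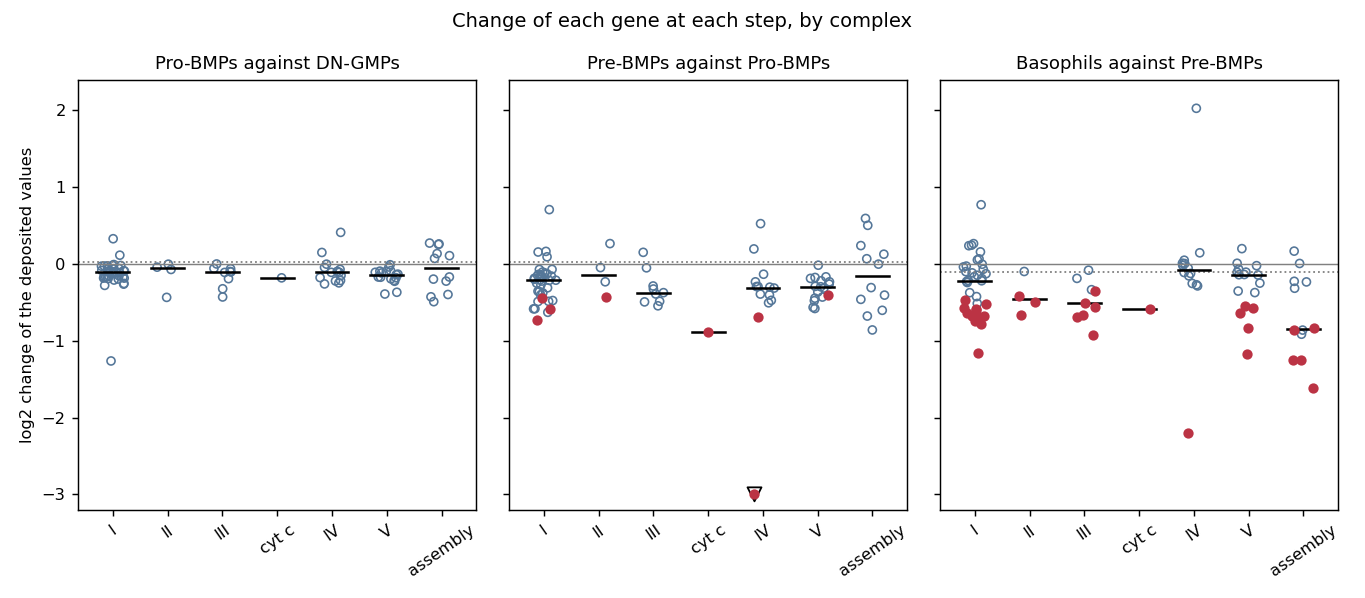
Log2 change (vertical axis) of each of the 94 rows at each of the 3 steps, by complex (horizontal axes), with filled red points for limma adjusted p under 0.05, open points for the rest, short black bars for the median of a complex and a dotted line for the median of all 14560 genes. Called points number 0, 8 and 34 from left to right, and Cox6a2, outlined with a triangle in the middle panel, is drawn at the lower edge because its log2 change of -5.92 lies below it.

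Of the 37 rows of complex I 13 were called lower at the last step and 0 higher, against 16.5% and 13.9% of all genes, and 24 were lower and 1 higher over the whole series, against 23.2% each way. Its summed level overlapped between Pre-BMPs and basophils. The core subunits carry the flavin and the iron-sulfur clusters. Of 7 nuclear core subunits 6 were called lower from Pre-BMPs to basophils, against 7 of 30 accessory subunits, a division made after the values were seen and not tested. Coding sequences ran from 636 to 2181 bases in the core and from 210 to 1404 in the accessory rows. Median standard errors were 0.123 and 0.176. The part of length and precision in this contrast was not tested. Ndufv1, which binds NADH, was at 184, 169 and 179 CPM in DN-GMPs, 166, 168 and 162 in the Pro-BMP libraries, 153, 171 and 131 in Pre-BMPs and 92.2, 103 and 94.6 in basophils. Pre-BMPs overlapped with both earlier populations, and every basophil library was below all progenitor libraries. It fell by 0.64 on the log2 scale at the last step (SE 0.106, limma adjusted p = 0.000857). Its partner Ndufv2 was at 180.3, 202 and 172 in Pre-BMPs and 102, 101 and 128 in basophils and fell by 0.75 (SE 0.142, limma adjusted p = 0.00215). Ndufs3 and Ndufs8 fell by 0.58 and 0.52. Ndufs1, the largest core subunit, was at 150.3, 183 and 133 in Pre-BMPs and 134, 85.3 and 93.7 in basophils, where replicate 1 overlapped with Pre-BMPs. Its call (SE 0.2, limma adjusted p = 0.0443) was lost without Pre-BMP replicate 1 or 2 or without basophil replicate 2 or 3 (limma adjusted p up to 0.159). Ndufs7, the core subunit not called at this step, was at 186, 174 and 163 in Pre-BMPs and 145, 156 and 145 in basophils (log2 change -0.23, limma adjusted p = 0.0634), and it was lower in basophils than in DN-GMPs (SE 0.0845, limma adjusted p = 0.000347).

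Among accessory subunits of complex I the one that fell furthest was Ndufa12. It stood at 113, 90.5 and 99.5 CPM in DN-GMPs, 79.2, 94 and 79.7 in the Pro-BMP libraries, 80.9, 88.8 and 63.3 in Pre-BMPs and 32.6, 32.5 and 38.6 in basophils. Neighbouring progenitor populations overlapped and every basophil library was below them, a fall of 1.16 at the last step (SE 0.158, limma adjusted p = 0.000241). Ndufc2 fell by 0.78 at that step (SE 0.183, limma adjusted p = 0.00761). Ndufc1 and Ndufa5 fell over the whole series by 1.47 and 1.36 (limma adjusted p = 8.23e-05 and 0.000144). Ndufab1, the mitochondrial acyl carrier protein, fell earlier: it was at 70.2, 83.2 and 67.9 in the Pro-BMP libraries, 49.4, 52.2 and 33.9 in Pre-BMPs and 36.8, 41.6 and 45 in basophils. At the middle step it fell by 0.73 (SE 0.18, limma adjusted p = 0.0278), a call lost without Pro-BMP replicate 1 or 2 or without Pre-BMP replicate 3 (limma adjusted p up to 0.108). Ndufb5 changed by -0.58 at the same step (SE 0.145, limma adjusted p = 0.0284), a call lost without Pro-BMP replicate 1 or 2 or without Pre-BMP replicate 1 or 3 (limma adjusted p up to 0.112). Ndufa10 was at 202, 201 and 201 CPM in DN-GMPs, 184, 204 and 182 in the Pro-BMP libraries, 146, 138 and 133 in Pre-BMPs and 135, 115 and 127 in basophils, and its fall of 0.45 (SE 0.0902, limma adjusted p = 0.00987) held with each library left out in turn (limma adjusted p up to 0.0499), but not without the mean-variance trend or without DN-GMP replicate 2 and Pre-BMP replicate 3 together (limma adjusted p up to 0.0598).

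Ndufa1, an X-linked membrane-arm subunit needed to assemble complex I, was the only row of the 94 called higher in any of the 4 comparisons. It stood at 103, 95.3 and 88.7 CPM in DN-GMPs, 122, 129.8 and 108 in the Pro-BMP libraries, 143, 150.0 and 111 in Pre-BMPs and 113, 130.4 and 139.9 in basophils. Every library of the later 3 populations was above every DN-GMP library. From DN-GMPs to basophils it rose by 0.42 (SE 0.138, limma adjusted p = 0.028). The call was lost without DN-GMP replicate 2 or 3 or without basophil replicate 2 or 3 (limma adjusted p up to 0.0931), and also with quantile normalization, with library sizes from reads on listed genes (limma adjusted p = 0.384) and without the mean-variance trend. Ndufa3 was at 128, 109.6 and 118 CPM in DN-GMPs and 109, 119 and 128 in basophils, and Ndufa13 at 149, 93.2 and 138 in DN-GMPs and 118, 122 and 130.4 in basophils. They had log2 differences of 0.00 and -0.01 that were not called, with standard errors of 0.166 and 0.201.

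Complex II has 4 subunits and no mitochondrially encoded part. Sdha, the flavoprotein that oxidises succinate, was at 458, 557 and 454 CPM in DN-GMPs, 479.6, 487 and 494 in the Pro-BMP libraries, 509.6, 443 and 464 in Pre-BMPs and 317, 346 and 339 in basophils. The progenitors overlapped and basophils lay below them, with a fall of 0.50 at the last step (SE 0.0856, limma adjusted p = 0.00114). Sdhc and Sdhd anchor the enzyme in the membrane. Sdhc was at 120.2, 108 and 112 CPM in DN-GMPs, 129, 109 and 95.2 in the Pro-BMP libraries, 99.1, 96.7 and 86.5 in Pre-BMPs and 48.7, 58.4 and 73 in basophils and fell by 0.67 at the last step (SE 0.159, limma adjusted p = 0.00822). Sdhd was at 339.7, 283 and 311 CPM in DN-GMPs, 319, 281 and 288 in the Pro-BMP libraries, 235, 225 and 200.3 in Pre-BMPs and 181, 145 and 169.8 in basophils, and together with Cycs it was called lower at both of the later steps. It changed by -0.43 from Pro-BMPs to Pre-BMPs (SE 0.107, limma adjusted p = 0.0294) and by -0.42 from there to basophils (SE 0.107, limma adjusted p = 0.0123). The former call was lost without Pro-BMP replicate 1, 2 or 3 or without Pre-BMP replicate 2 or 3 (limma adjusted p up to 0.113), the latter without Pre-BMP replicate 1 (limma adjusted p up to 0.0509). Sdhb, the iron-sulfur subunit, was not called in any comparison: it was at 270.3, 209 and 231 in DN-GMPs, 178, 209 and 142 in the Pro-BMP libraries, 210.2, 237 and 184 in Pre-BMPs and 191, 208 and 189 in basophils, with basophils below DN-GMPs but overlapping with Pre-BMPs (basophils against DN-GMPs -0.27, SE 0.149, limma adjusted p = 0.164).

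In complex III 8 of 9 genes were called lower in basophils than in DN-GMPs, against 23.2% of all genes, and 6 at the last step, against 16.5%. Cyc1 encodes cytochrome c1, the subunit that hands electrons to cytochrome c. It was at 251, 273 and 271 CPM in DN-GMPs, 242, 247 and 250.4 in the Pro-BMP libraries, 196, 203 and 138 in Pre-BMPs and 110.4, 97.2 and 122 in basophils, with no overlap at any step. It fell by 0.69 at the last step (SE 0.139, limma adjusted p = 0.00316) and by 1.28 in all (SE 0.139, limma adjusted p = 2.08e-05). The core proteins Uqcrc1 and Uqcrc2 both lay lowest in basophils. Uqcrc1 was at 489.8, 423 and 487 CPM in DN-GMPs, 323, 362 and 353 in the Pro-BMP libraries, 332, 244 and 259 in Pre-BMPs and 230.1, 224 and 194 in basophils. Uqcrc2 was at 185, 223 and 224 CPM in DN-GMPs, 143, 194 and 171 in the Pro-BMP libraries, 192, 189.9 and 178 in Pre-BMPs and 130.3, 119.7 and 129 in basophils, and its Pro-BMP and Pre-BMP libraries overlapped. Over the whole series they fell by 1.11 and 0.73 (limma adjusted p = 1.85e-05 and 0.000415). At the last step Uqcrc2 fell by 0.56 (SE 0.12, limma adjusted p = 0.00422), while the call of Uqcrc1 (SE 0.12, limma adjusted p = 0.0414) was lost without Pre-BMP replicate 1 or 3 or without basophil replicate 1, 2 or 3 (limma adjusted p up to 0.152). Of the small subunits, Uqcrq was at 132, 133 and 81.1 in Pre-BMPs and 44.4, 59.9 and 79 in basophils and fell by 0.92 (SE 0.251, limma adjusted p = 0.0163), a call lost without Pre-BMP replicate 1 or 2 or without basophil replicate 1 (limma adjusted p up to 0.066). Uqcrb fell by 0.66 (SE 0.166, limma adjusted p = 0.0108). The call of Uqcr11 (SE 0.175, limma adjusted p = 0.0492) was lost without Pre-BMP replicate 1 or 2 or without basophil replicate 1, 2 or 3 (limma adjusted p up to 0.173). Uqcr10 and the Rieske protein Uqcrfs1 were called over the whole series (-0.69 and -0.81, limma adjusted p = 0.00951 and 0.000523) but at no single step. Uqcrh, the hinge protein, was not called: it was at 158, 107 and 146 in DN-GMPs and 129.5, 103 and 125 in basophils (log2 change -0.19, SE 0.156).

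Cycs encodes cytochrome c, which carries electrons between complexes III and IV and, once released into the cytosol, triggers apoptosis. Its level was 150.1, 108 and 133 CPM in DN-GMPs, 113, 128 and 104 in the Pro-BMP libraries, 69.3, 73.4 and 47 in Pre-BMPs and 41.2, 45.2 and 38.4 in basophils. DN-GMPs and Pro-BMPs overlapped, and from there each population lay below the one before it. Cycs fell by 0.88 from Pro-BMPs to Pre-BMPs (SE 0.186, limma adjusted p = 0.0126), a call lost without Pro-BMP replicate 2 (limma adjusted p up to 0.0585). At the last step it fell by 0.58 (SE 0.186, limma adjusted p = 0.0343), a call lost without Pre-BMP replicate 1 or 2 or without basophil replicate 1 or 3 (limma adjusted p up to 0.131) and with voom weights, with the 2 populations fitted alone and without the variance trend. The fall of 1.64 over the whole series (SE 0.186, limma adjusted p = 2.79e-05) held under each alternative that was run.

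In complex IV 11 of 14 genes were lower in basophils than in DN-GMPs, against 23.2% of all genes. At the last step 1 of 14 was called lower, against 16.5% of all genes, with a median change of -0.08, against -0.10 over all genes. Its summed level was 3049.5, 2428 and 2930.0 CPM in DN-GMPs, 2514, 2792 and 2319.6 in the Pro-BMP libraries, 2163, 2384 and 1671 in Pre-BMPs and 1810.2, 1821 and 2068 in basophils. Pre-BMP replicate 3 was the lowest of the 12 libraries, and the Pre-BMP mean was 2073 with it and 2273 without it. Without that library 1 of 14 was again called at the last step, with a median change of -0.25, and without Pre-BMP replicate 2 the median was 0.04. With library sizes from reads on listed genes 5 of 14 were called lower, against 26.2% of all genes under that scaling. With quantile normalization 4 were, against 17.6%. Whether complex IV differs from the other complexes was not tested. Cox4i1, the subunit through which ATP regulates the enzyme, was at 483, 376 and 468 CPM in DN-GMPs, 345, 415 and 355 in the Pro-BMP libraries, 323, 328 and 257 in Pre-BMPs and 308, 279 and 323 in basophils. Pre-BMPs and basophils overlapped (log2 change 0.01, SE 0.125), and basophils lay below DN-GMPs by 0.54 (SE 0.125, limma adjusted p = 0.00446). Cox5a was at 165, 133 and 161 CPM in DN-GMPs, 134, 129.7 and 119 in the Pro-BMP libraries, 84.7, 88.6 and 64.8 in Pre-BMPs and 75.2, 87 and 75.1 in basophils: it fell by 0.70 from Pro-BMPs to Pre-BMPs (SE 0.142, limma adjusted p = 0.0105), a call that held under each alternative run, and its log2 difference at the last step was 0.01 (limma adjusted p = 0.983). Cox7b fell by 0.97 over the whole series (SE 0.202, limma adjusted p = 0.00224). Cox8a, Cox7a2 and Ndufa4, a complex IV subunit despite its name, fell by 0.51, 0.53 and 0.62 over the series (limma adjusted p = 0.0136, 0.0158 and 0.00748). The call of Cox8a was lost without DN-GMP replicate 1 (limma adjusted p up to 0.0555) and that of Cox7a2 without DN-GMP replicate 1 or 3 or without basophil replicate 1 (limma adjusted p up to 0.0585).

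Several subunits of complex IV exist as tissue isoforms, and Cox6b2, known as the testis isoform of Cox6b, was detected in all 12 libraries. It was at 26.8, 24.3 and 25.2 CPM in DN-GMPs, 38.1, 31.4 and 32.3 in the Pro-BMP libraries, 45.6, 56.5 and 44.8 in Pre-BMPs and 5.69, 11.3 and 18.2 in basophils. Levels did not overlap at any step, going up at the first 2 and down at the last. The upward steps were not called (log2 changes 0.41 and 0.53, limma adjusted p = 0.667 and 0.397), and the fall of 2.21 at the last step was (SE 0.337, limma adjusted p = 0.000518). Basophils were also below DN-GMPs, by 1.27 (SE 0.337, limma adjusted p = 0.00928), a call lost with the 2 populations fitted alone (limma adjusted p = 0.0573). Cox6b1, the general isoform, was at 219.7, 237 and 154 CPM in Pre-BMPs and 179.9, 191 and 209.6 in basophils, and its change at that step was -0.05 (SE 0.152). Cox6a2, the heart and muscle isoform, was near the limit of detection: it was at 0.637, 1.09 and 0.199 in DN-GMPs, 0.314, 0.862 and 0.717 in Pro-BMPs, 0 in all 3 Pre-BMP libraries and 0, 0 and 0.461 in basophils. Against the floor of 3 reads in each Pre-BMP library it was at least 10.8-fold lower than in Pro-BMPs, and the call (limma adjusted p = 0.0267) was lost without Pro-BMP replicate 1, 2 or 3 or without Pre-BMP replicate 1, 2 or 3 (limma adjusted p up to 0.0925). Cox6a1, its general counterpart, was at 272, 266 and 306 CPM in DN-GMPs and 219, 228 and 243 in basophils and was not called (log2 change -0.29, limma adjusted p = 0.0774). Cox7a2l, a paralog of Cox7a2, was not called either: it was at 68, 58.4 and 68.3 in DN-GMPs and 88.4, 65.6 and 94.9 in basophils (0.34, SE 0.154, limma adjusted p = 0.0911).

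**Figure D3:**
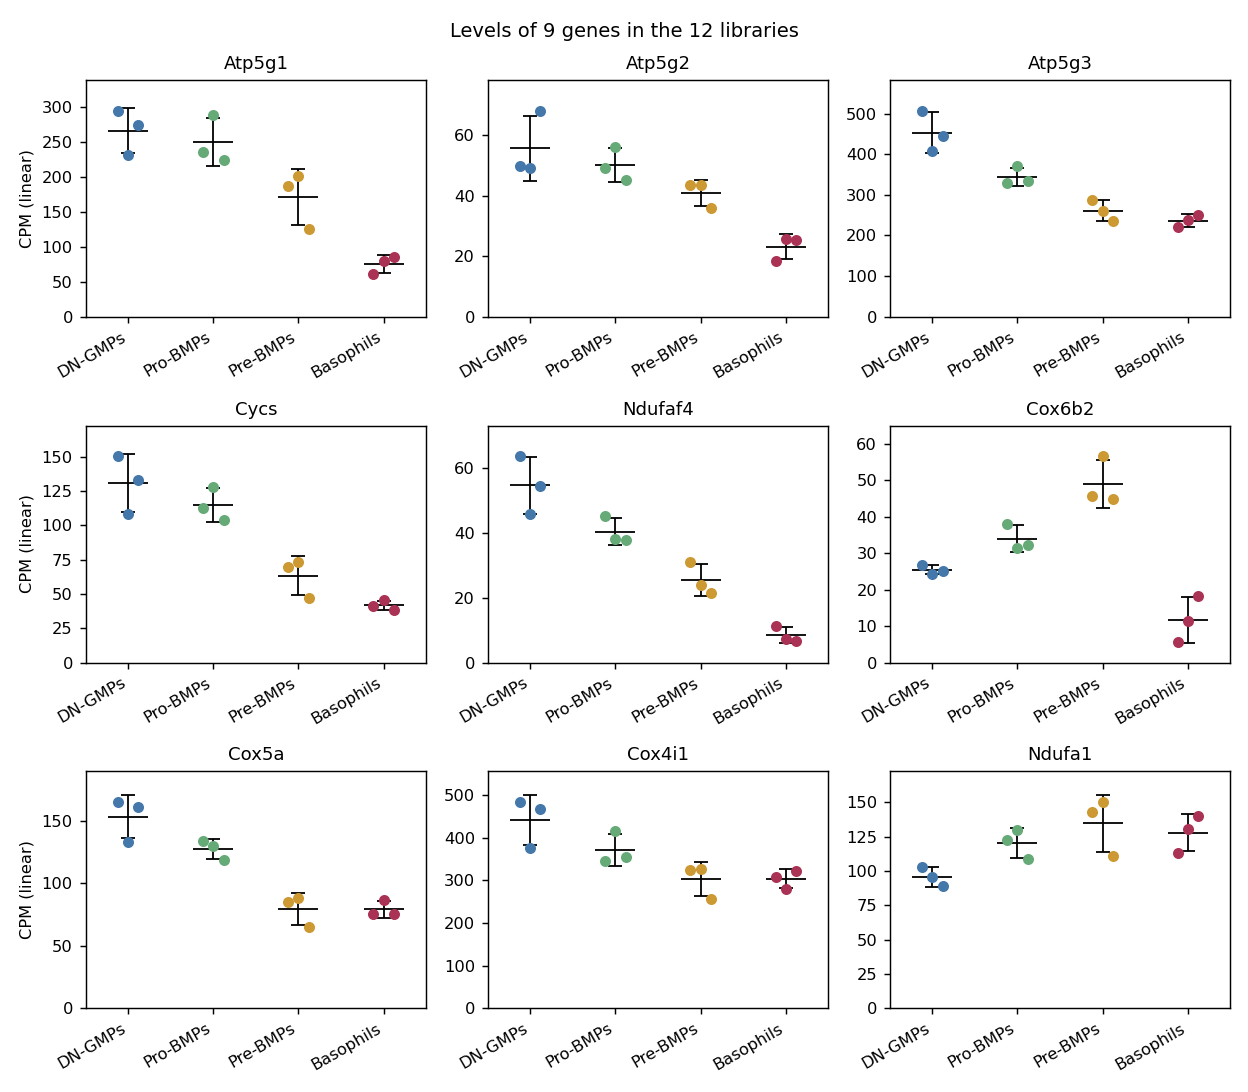
CPM (vertical axes, linear, from 0) of 9 genes in each library of all populations (horizontal axes). Points are replicates 1 to 3 from left to right, bars the mean and whiskers the SD of 3. Cox6b2 is highest in Pre-BMPs (44.8 to 56.5), Cox5a and Cox4i1 overlap between Pre-BMPs and basophils, and Ndufa1 is lowest in DN-GMPs.

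Complex V was lower in basophils than in DN-GMPs in 15 of 17 genes, against 23.2% of all genes. At the last step 5 of 17 were called lower, against 16.5% of all genes. The median log2 change there was -0.14, against -0.10 over all genes. The catalytic head is built of alpha (Atp5a1) and beta (Atp5b) subunits. Atp5b was at 1506, 1615 and 1451 CPM in DN-GMPs, 1407, 1537 and 1344 in the Pro-BMP libraries, 1319.5, 1276 and 1199 in Pre-BMPs and 738, 858 and 835 in basophils. Its Pre-BMP libraries lay below its Pro-BMP libraries without a call (-0.18, limma adjusted p = 0.163), and it fell by 0.64 at the last step (SE 0.0712, limma adjusted p = 4.97e-05), with the smallest adjusted p of the 94 rows there. Atp5a1 fell by 0.58 (SE 0.0953, limma adjusted p = 0.000893). The stalk subunits gamma (Atp5c1), delta (Atp5d) and epsilon (Atp5e) were not called at that step, with log2 differences of -0.11, 0.01 and -0.07. Over the whole series they fell by 0.38, 0.50 and 0.63. Atp5k, subunit e of the membrane part, fell by 1.20 over the series (SE 0.278, limma adjusted p = 0.00426). Atp5f1, subunit b of the stator, was not called in any comparison: it was at 344, 318 and 294 in DN-GMPs and 341, 285 and 342 in basophils (0.02, SE 0.115).

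The c subunit of the rotor ring is encoded by Atp5g1, Atp5g2 and Atp5g3, whose products differ in the import sequence that is cut off. All 3 were lower in basophils than in DN-GMPs, along different courses. Atp5g1 was at 295, 231 and 274 CPM in DN-GMPs, 236, 289.7 and 225 in the Pro-BMP libraries, 188, 201 and 126 in Pre-BMPs and 61.3, 79.3 and 86 in basophils. It fell by 1.17 at the last step (SE 0.191, limma adjusted p = 0.000822) and by 1.83 over the series (SE 0.191, limma adjusted p = 1.51e-05). Atp5g2 was at 49.9, 49.1 and 68.1 CPM in DN-GMPs, 49.2, 56.2 and 45.1 in the Pro-BMP libraries, 43.5, 43.5 and 36.1 in Pre-BMPs and 18.5, 25.7 and 25.4 in basophils and fell by 0.83 at the last step (SE 0.195, limma adjusted p = 0.00726). Atp5g3 was at 507, 408 and 444 CPM in DN-GMPs, 330.2, 370.3 and 334 in the Pro-BMP libraries, 288, 260.2 and 236 in Pre-BMPs and 220.0, 238 and 251 in basophils: its log2 differences at the 3 steps were -0.39, -0.40 and -0.14. The middle step was called (SE 0.102, limma adjusted p = 0.0306), a call lost without Pro-BMP replicate 1, 2 or 3 or without Pre-BMP replicate 2 or 3 (limma adjusted p up to 0.119), and the other steps were not. Over the series Atp5g3 fell by 0.94 (SE 0.102, limma adjusted p = 2.08e-05). The 3 genes summed to 0.432 ± 0.0618 times their DN-GMP level in basophils, against 0.585 ± 0.0424 for the 5 head and stalk subunits of Atp5a1 to Atp5e and 0.701 ± 0.0892 for the 9 others of complex V, groupings made after the values were seen and not tested.

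Of the 12 assembly factors 5 were called lower in basophils than in Pre-BMPs, against 16.5% of all genes, and 7 lower than in DN-GMPs, against 23.2%. Of the rows called lower over the series Ndufaf4 and Ndufaf2 fell furthest, while at the last step Cox6b2 fell further than either. Ndufaf4, a complex I assembly factor, was at 63.6, 45.8 and 54.6 CPM in DN-GMPs, 45.2, 38.1 and 38 in the Pro-BMP libraries, 31, 24 and 21.5 in Pre-BMPs and 11.4, 7.2 and 6.78 in basophils. No library overlapped with one of the population before it. It fell by 1.61 at the last step (SE 0.243, limma adjusted p = 0.000471) and by 2.72 over the series (SE 0.243, limma adjusted p = 4.46e-06). Ndufaf6 fell by 1.25 at the last step (SE 0.264, limma adjusted p = 0.00415). Ndufaf2, a paralog of Ndufa12, was at 12.8, 12.5 and 7.77 in Pre-BMPs and 6.24, 5.02 and 2.91 in basophils and fell by 1.25 (SE 0.351, limma adjusted p = 0.0184), a call lost without Pre-BMP replicate 1 or 2 or without basophil replicate 3 (limma adjusted p up to 0.0672). Over the series the fall of Ndufaf2 was 2.04 (SE 0.351, limma adjusted p = 0.000607). Ndufaf7, a methyltransferase that helps assemble complex I, had a peak: it was at 31.5, 36.7 and 36.9 CPM in DN-GMPs, 43.3, 45.8 and 36.6 in the Pro-BMP libraries, 69.1, 66.9 and 53.9 in Pre-BMPs and 40.6, 28.9 and 37.7 in basophils. Its Pre-BMP libraries were above all others, its rise from Pro-BMPs was not called (0.59, limma adjusted p = 0.0622), and its fall of 0.83 at the last step was (SE 0.179, limma adjusted p = 0.0046). Sdhaf4, which helps mature Sdha, fell by 0.86 at that step (SE 0.188, limma adjusted p = 0.00488). Over the series the calls of Ndufaf5, Ndufaf8, Sdhaf1 and Sdhaf4 were each lost without any of several single libraries (limma adjusted p up to 0.163, 0.151, 0.127 and 0.132). Ndufaf1, Ndufaf3, Sdhaf2 and Sdhaf3 were not called in any comparison.

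By the calls at each step, 22 of the 94 rows were lower in none of the 4 comparisons, 32 only over the whole series, and 30 at the last step and over the series. The other 10 were the 8 called at the Pre-BMP step and Ndufs1 and Ndufaf7, called only at the last step. The 22 without a fall held 12 rows of complex I, among them both rows named Ndufa13, as well as Sdhb, Uqcrh, Cox6a1, Cox7a2l, Atp5f1, Atp5h and 4 assembly factors. These patterns were not counted over all genes, so no share stands beside them. A gene that missed the threshold is not shown to be level. A near-identical copy elsewhere in the genome (95% identity or more over at least 50% of the length) was found for 10 members, among them Atp5g2, Ndufs3, Uqcrb and Atp5o. Exons of 36 overlap with another gene, and the kits do not mark strand, so their counts can hold or lose reads of those genes.

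Most members are short, and short genes behaved alike within libraries. The coding sequence was under 500 bases in 53 of the 90 members with a mean of at least 10 CPM, 500 to 1000 in 24 and over 1000 in 13. In DN-GMP replicate 2 the median member under 500 bases stood -0.23 from its population mean on the log2 scale, and the 730 other genes of that length stood -0.15. In Pre-BMP replicate 3 these values were -0.32 and -0.13. Members over 1000 bases stood at 0.05 and -0.08 in these 2 libraries, and the 5663 other genes of that length at 0.10 and 0.05. Long members were also lower in basophils. From Pre-BMPs to basophils 10 of 13 members over 1000 bases were called lower, against 19.4% of other genes of that length, 10 of 24 of 500 to 1000 bases, against 23.2%, and 14 of 53 under 500 bases, against 23.7%. From DN-GMPs to basophils the counts were 10 of 13, 20 of 24 and 38 of 53, against 24.8%, 33.1% and 39.2% of other genes of the same lengths. With the trend of each library with coding length removed, 34 members were lower at the last step and 67 over the series, with a median change of -0.21 and -0.62. Of all genes with a coding length, 19% and 26.6% were called lower under that setting, with a median change of -0.07 and -0.04.

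**Figure D4:**
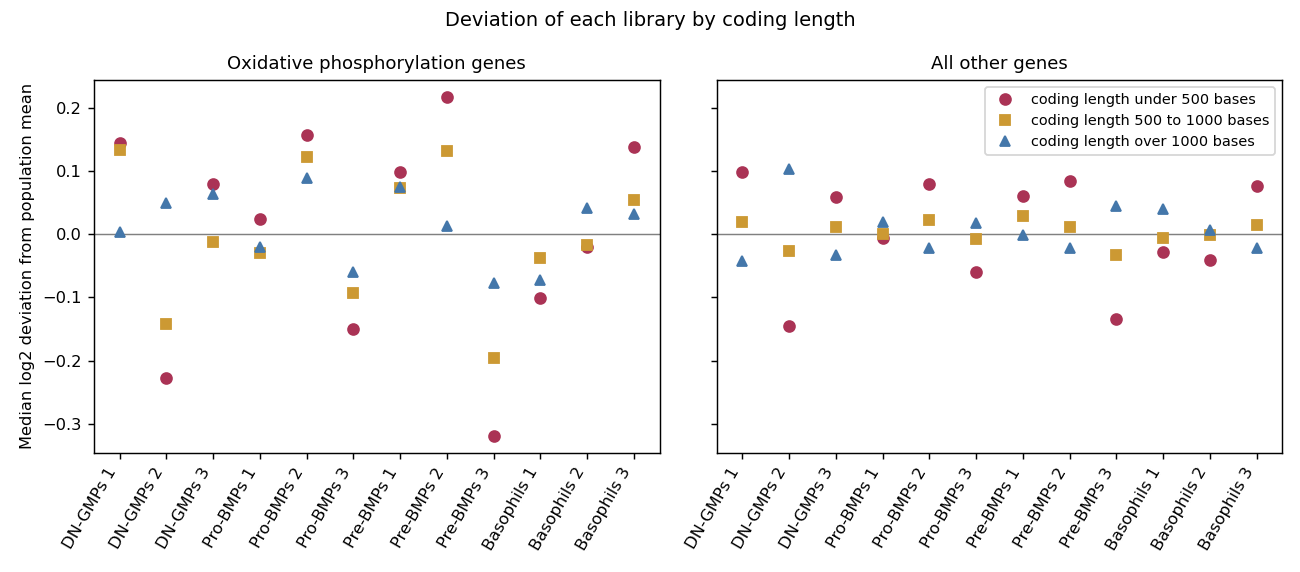
Median log2 deviation of each library from its population mean (vertical axis) for genes in 3 classes of coding length, in the oxidative phosphorylation genes (left) and in all other genes with a mean of at least 10 CPM (right), over the 12 libraries (horizontal axes). Genes under 500 bases are lowest in DN-GMP replicate 2 and Pre-BMP replicate 3 in both panels, at -0.23 and -0.32 on the left and -0.15 and -0.13 on the right.

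Genes that serve the same organelle were counted from lists chosen for their function. Over all genes 16.5% were called lower and 13.9% higher at the last step, and 23.2% each way over the whole series. Of 23 cytochrome c oxidase assembly genes 3 were lower and 2 higher at the last step, and 8 and 2 over the whole series. Cox10, which makes heme for complex IV, was at 48.7, 34.4 and 36.6 CPM in DN-GMPs and 7.89, 8.35 and 10.1 in basophils (-2.18, limma adjusted p = 3.96e-05). Of 10 genes listed for complexes III and V, assembly genes together with the inhibitor gene Atpif1, 5 were lower and 0 higher at the last step. Over the series 5 were lower and 1 higher. Atpif1, the inhibitor that stops complex V from running backwards, was at 231, 186 and 215 CPM in DN-GMPs, 222, 237 and 179 in Pre-BMPs and 74.1, 78.9 and 86.1 in basophils, and fell by 1.41 at that step (SE 0.14, limma adjusted p = 2.21e-05). Of 8 further complex I assembly genes 3 were lower and 0 higher at the last step, and 4 and 1 over the series, with Nubpl, which delivers iron-sulfur clusters, at 15.7, 15.1 and 14.5 CPM in Pre-BMPs and 1.69, 6.87 and 1.73 in basophils.

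Genes of ATP carriers and of fuel supply were also among those that fell. The counts below stand against 16.5% of all genes lower and 13.9% higher at the last step, and 23.2% each way over the series. Of 7 carriers and channels for ATP, phosphate and protons 4 were lower at the last step and 5 over the series, with 0 higher in either. Slc25a4, the ADP/ATP carrier of heart and muscle, was at 138, 129.9 and 144 CPM in DN-GMPs, 98, 75.5 and 69.1 in Pre-BMPs and 13.1, 12.8 and 15.9 in basophils, and fell by 2.53 at the last step (SE 0.164, limma adjusted p = 9.26e-07). Slc25a5, the carrier of dividing cells, fell by 0.57 (SE 0.107, limma adjusted p = 0.00203). Ucp2 rose from Pro-BMPs to Pre-BMPs by 0.55 (SE 0.0937, limma adjusted p = 0.00407). Of 18 citric acid cycle and pyruvate dehydrogenase genes 10 were lower and 1 higher at the last step, and 12 and 1 over the series. Idh2, the NADP-linked isocitrate dehydrogenase, was at 484, 537 and 466 CPM in DN-GMPs, 402, 345 and 367 in Pre-BMPs and 83.1, 123 and 95.2 in basophils. It fell by 1.90 at the last step (SE 0.126, limma adjusted p = 1.08e-06). Of 13 coenzyme Q genes 6 were lower and 2 higher at that step, and 8 and 2 over the series. Coq8b rose by 1.86 (SE 0.244, limma adjusted p = 0.00018). Protein import had 11 of 23 lower and 0 higher at the last step and 19 and 0 over the series, and mitochondrial ribosomal proteins 40 of 77 lower and 2 higher and then 63 and 0.

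Glycolysis moved in both directions. Of 22 genes 11 were lower and 2 higher from Pro-BMPs to Pre-BMPs, against 4.69% and 4.8% of all genes. From Pre-BMPs to basophils 5 were lower and 11 higher, against 16.5% and 13.9%, and over the whole series 10 and 7, against 23.2% each way. Slc2a3, a glucose transporter, was at 44.1, 45.1 and 74.8 CPM in Pre-BMPs and 384, 330.4 and 305 in basophils, and rose by 2.67 at that step (SE 0.549, limma adjusted p = 0.00346). Hk3, a hexokinase of myeloid cells, was at 503, 617 and 448 in DN-GMPs, 348, 323 and 289 in the Pro-BMP libraries, 55.7, 55.2 and 58 in Pre-BMPs and 729, 637 and 590.2 in basophils, so it was lowest in Pre-BMPs and back above Pro-BMPs in basophils. Ldhb, the lactate dehydrogenase chain of respiring tissues, was at 71.6, 84.3 and 76.2 CPM in the Pro-BMP libraries, 16.8, 15.8 and 13.8 in Pre-BMPs and 0, 0.879 and 0 in basophils.

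Of 19 regulators of mitochondrial genes 7 were lower and 2 higher in basophils than in DN-GMPs, against 23.2% of all genes each way, and their median log2 change was -0.07. Myc, which drives growth genes that include many mitochondrial ones, was at 403, 414 and 339.6 CPM in DN-GMPs, 323, 285 and 364 in the Pro-BMP libraries, 258, 213 and 234 in Pre-BMPs and 105, 89.8 and 79.7 in basophils. It fell by 1.37 at the last step (SE 0.132, limma adjusted p = 1.76e-05). The PGC-1 family coactivator Ppargc1b was at 6.24, 10.8 and 22.3 in DN-GMPs and 1.02, 2.55 and 4.8 in basophils (-2.30, limma adjusted p = 0.0089). Of the factors whose motifs were searched, none of the following was called lower over the series. Nrf1 was at 53.7, 79.8 and 43.4 CPM in DN-GMPs and 93, 91.2 and 108 in basophils (0.77, limma adjusted p = 0.00788), and Gabpa at 35.6, 56 and 37.2 in DN-GMPs and 53, 47 and 52.2 in basophils (0.27, limma adjusted p = 0.261). Esrra, an estrogen-related receptor, rose by 0.78 (SE 0.245, limma adjusted p = 0.0217), a call lost without DN-GMP replicate 3, without basophil replicate 2 or 3 and with library sizes from reads on listed genes. Yy1 was at 4.13, 11.9 and 9.76 CPM in Pre-BMPs and 26.6, 20.1 and 19.5 in basophils and rose by 1.48 at that step (SE 0.41, limma adjusted p = 0.0176), a call lost without Pre-BMP replicate 1 or without basophil replicate 1. Tfam, which packages mitochondrial DNA, was at 60.6, 53.9 and 43.4 in DN-GMPs and 58, 36.2 and 56.8 in basophils (-0.08, limma adjusted p = 0.769).

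Genes that maintain mitochondrial DNA were called in both directions. Of 9 such genes 4 were lower and 1 higher from Pre-BMPs to basophils, against 16.5% and 13.9% of all genes, and 4 were lower and 5 higher from DN-GMPs to basophils, against 23.2% each way, with a median log2 change of 0.57. Their summed level in basophils was 1.06 ± 0.138 times that in DN-GMPs (SD carried from both groups, n = 3 each), and these groups overlapped. Top1mt, the mitochondrial topoisomerase, was at 33.5, 31.4 and 16.9 CPM in DN-GMPs and 3.45, 2.01 and 2.74 in basophils and fell by 3.28 over the series (SE 0.435, limma adjusted p = 9.24e-05). Primpol, a primase and polymerase, was at 1.08, 11.1 and 9.31 in DN-GMPs and 23.2, 18.8 and 29.5 in basophils and rose by 2.28 (SE 0.704, limma adjusted p = 0.0202), a call lost without basophil replicate 3 and with the 2 populations fitted alone (limma adjusted p up to 0.0836).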

How the data were processed

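RNA-seq libraries were made with SMART-Seq v4 and Nextera XT kits, which do not mark strand, from 12 sorts (4 populations, 3 libraries each). The submitters' processing notes name Trimmomatic, STAR, HTSeq and deepTools without versions, and no genome build or annotation is given in the sources used here. The authors deposited log2 values, found from the values themselves to be log2 of (reads + 0.5) per 1000000 of a scaled library size. Reads were taken back from them, 100.0% of values being within 0.001 of a whole number, and CPM is those reads per 1000000 of the scaled size. Rows that name no gene (3 in all) were left out, and they held 6.65% to 12.6% (no feature), 3.63% to 4.14% (ambiguous) and 8.51% to 12.1% (not unique) of a library.

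limma 3.58.1 (R 4.3.3) was fitted to the deposited log2 values of all 14560 genes and 12 libraries, with 1 mean per population, a mean-variance trend and Benjamini-Hochberg adjustment over all genes for each comparison. A call is an adjusted p under 0.05. Log2 changes are on the log2(CPM) scale with 0.5 reads added, which understates changes of low genes. No filter on low values was applied: 94 of 94 members and all 14560 genes pass 10 scaled reads in 3 libraries, and 92 of 94 pass 100.

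The members and all lists were chosen with earlier results of these data known. Named are all genes of complexes II and III and Cycs, up to 3 called genes per direction, comparison and other complex, genes called against the rest of their complex or at 0 reads in a population, isoform sets, the smallest adjusted p per complex at the last step, and up to 2 called genes per other list and comparison. Core subunits of complex I, head and stalk subunits of complex V, further assembly factors, Ndufa3, Ndufa13, Nrf1, Gabpa, Esrra and Tfam were added after their values were seen. Gene models (GENCODE vM21) and promoters (RefSeq) were matched by gene ID or symbol. Alternatives changed the added reads, weights, scaling, filter, libraries, block, variance trend and, chosen after seeing the data, coding length and the joint removal of 2 libraries. The values of a single complex I gene are not reported here.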

Additional observations from a re-analysis of the deposited data

How the results depend on the processing

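No called gene, and no median or ratio of sums over the 94, reversed under any alternative. Among the complexes, the median change of complex IV at the last step (-0.08) was 0.04 without Pre-BMP replicate 2, and that of the assembly factors at the first step (-0.05), where none was called, was 0.02 to 0.08 without DN-GMP replicate 1 or Pro-BMP replicate 1 or 3. From Pre-BMPs to basophils 34 genes were lower, and 56 with library sizes from reads on listed genes. The median change there (-0.25) became -0.57 with those library sizes, -0.41 with quantile normalization and -0.42 without DN-GMP replicate 2 and Pre-BMP replicate 3, and the ratio of summed levels (0.802) became 0.642 and 0.655 with the former 2. From DN-GMPs to basophils the median (-0.71) became -0.97 and the ratio (0.621) 0.518 with library sizes from reads on listed genes, and the ratio was 0.545 with quantile normalization. The count higher there (1) was 0 with quantile normalization, with listed-gene library sizes and without the variance trend, and 2 with the trend with coding length removed. From Pro-BMPs to Pre-BMPs 8 were lower: 3 without the variance trend, 2 without DN-GMP replicate 2 and Pre-BMP replicate 3 and 17 with the trend with coding length removed, and 1 was higher with voom weights or listed-gene library sizes. From DN-GMPs to Pro-BMPs 1 was lower without these 2 libraries or with the trend with coding length removed. The causes were not tested.

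With each library left out in turn the counts lower ran from 0 to 1, 2 to 9, 23 to 35 and 54 to 69 over the 3 steps and the whole series, with 0 to 1 higher at the middle step and over the whole series. Medians ran from -0.22 to -0.05, -0.36 to -0.16, -0.42 to -0.16 and -0.78 to -0.67, and ratios of sums from 0.874 to 0.947, 0.812 to 0.905, 0.751 to 0.837 and 0.597 to 0.640. Of the genes named by rule, calls were lost with some library left out for 6 of 8, 6 of 20 and 3 of 31 at the middle step, the last step and over the series. That rule picks genes in part for large changes or small adjusted p, so these counts can understate how many calls hang on single libraries. Outside it, the calls of Cox6c, Cox7c, Atp5e, Atp5j, Atp5j2 and Atp5l over the series were also lost in this way. So was that of Atp5o at the last step.

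No pairing of the samples by the labels' replicate numbers was evident. Deviations of same-numbered libraries correlated at -0.06 to 0.04 over 18 pairs, and other pairs at -0.05 to 0.06. Of 12 libraries 6 correlated best with their own number. Deviations from means of 3 libraries cannot show that the numbers do not mark mice. With the replicate block 0, 6, 29 and 64 genes were lower over the 3 steps and the whole series, and 58 were called by the F-test. Shares of all genes called with the block, or with a library left out, are not given here. Whether those counts moved more than in other genes was not tested.

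Precision is limited by 3 libraries per population. A count of 0 does not exclude a level up to the floor of 3 reads (0.0512 to 0.0745 CPM).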
